A study of Mus musculus with 7 samples.

Results

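The genes described are 41 members of the interferon response and of class I antigen presentation, taken by gene symbol from the deposited count table of mouse motor cortex RNA. All 41 were found among its 54532 genes, and 38 of them had enough counts to be tested. The 7 libraries came from 4 conditional knockout (cKO) and 3 wild-type (WT) mouse samples. All were injected with a virus named GA100 on postnatal day 0, into the left and the right lateral ventricle, and tissue was taken 3 months after injection, following behavioural tests. The series title concerns TIA1, a protein of stress granules, in mice that carry poly-GA, a repeat protein linked to C9orf72 disease. The labels do not name the deleted gene or exons, the cells that carry the deletion, the strain or the sex, and no library without GA100 virus was analysed here, so cKO and WT differ by genotype under the same virus injection.

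Interferons are secreted when cells sense foreign or misplaced nucleic acid. RNA sensors such as RIG-I (Ddx58) and MDA5 (Ifih1) signal towards interferon production, and interferon bound to its receptor activates transcription factors that include STAT2 and IRF9. These act on short promoter sequences called the interferon-stimulated response element (ISRE) and the gamma-activated sequence (GAS), and the genes so induced include antiviral effectors, GTPases and the class I antigen machinery. In brain, microglia are a main source of such transcripts, although neurons and glia can also respond.

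Promoter sequence was examined because many interferon-induced genes are known to share these elements. RefSeq promoter windows (GRCm38.p6, 250 bases before to 50 after each start) were given for 33 of the 41 members. The ISRE was searched as a pair of GAAA repeats with any 2 bases between them and the GAS as TTCNNNGAA, each on both strands, with overlapping matches counted. In Bst2 a GAS match overlapped an ISRE match. An ISRE match lay in the window of 18 of the 33 members (54.5%), against 1079 of 27025 genes with a window (3.99%). A GAS match lay in 8 of the 33 (24.2%), against 2582 of the 27025 (9.55%). By role, the ISRE was found in 3 of 4 sensing genes, 1 of 3 transcription factors (Stat2), 8 of 15 effectors, 5 of 5 GTPases and 1 of 6 class I genes (B2m). The members were named as interferon genes in the first place, so the shares describe the set and test nothing.

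The 250 bases before the start are printed for 7 members. Ifit1 and Rsad2 had the smallest p of the members, and Ifit3 and Ifit3b are near-copies. Isg15 was taken for its overlapping matches, and the GTPase Igtp and class I gene B2m for their roles. Each sequence runs 5′ to 3′ along the gene's strand, and capitals mark the ISRE matches.
Ifit1 (chr19:34640639-34640888, forward strand): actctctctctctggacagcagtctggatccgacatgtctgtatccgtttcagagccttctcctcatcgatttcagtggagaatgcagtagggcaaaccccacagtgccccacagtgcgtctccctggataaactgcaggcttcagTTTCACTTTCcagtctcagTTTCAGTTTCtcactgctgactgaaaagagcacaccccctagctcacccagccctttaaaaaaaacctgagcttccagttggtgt
Ifit3 (chr19:34583279-34583528, forward strand): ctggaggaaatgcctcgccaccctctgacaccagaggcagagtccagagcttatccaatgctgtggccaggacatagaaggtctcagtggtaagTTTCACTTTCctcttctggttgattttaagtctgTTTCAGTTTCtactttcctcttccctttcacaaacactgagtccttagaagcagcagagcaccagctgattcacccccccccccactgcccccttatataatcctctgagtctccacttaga
Ifit3b (chr19:34607707-34607956, forward strand): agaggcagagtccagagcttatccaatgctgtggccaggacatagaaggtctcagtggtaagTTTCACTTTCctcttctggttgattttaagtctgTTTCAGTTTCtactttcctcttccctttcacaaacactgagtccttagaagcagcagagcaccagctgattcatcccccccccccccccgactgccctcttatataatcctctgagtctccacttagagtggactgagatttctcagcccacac
Isg15 (chr4:156200819-156201068, reverse strand): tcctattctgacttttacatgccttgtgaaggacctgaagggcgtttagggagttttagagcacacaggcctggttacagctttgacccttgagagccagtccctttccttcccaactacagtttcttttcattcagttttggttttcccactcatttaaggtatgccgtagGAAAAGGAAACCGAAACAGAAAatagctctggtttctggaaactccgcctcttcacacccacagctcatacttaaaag
Rsad2 (chr12:26456453-26456702, reverse strand): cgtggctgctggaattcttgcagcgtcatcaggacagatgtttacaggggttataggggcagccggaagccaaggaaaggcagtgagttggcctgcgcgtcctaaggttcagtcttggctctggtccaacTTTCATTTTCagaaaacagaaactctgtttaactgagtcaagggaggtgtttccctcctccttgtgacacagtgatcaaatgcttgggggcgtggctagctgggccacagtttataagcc
Igtp (chr11:58199306-58199555, forward strand): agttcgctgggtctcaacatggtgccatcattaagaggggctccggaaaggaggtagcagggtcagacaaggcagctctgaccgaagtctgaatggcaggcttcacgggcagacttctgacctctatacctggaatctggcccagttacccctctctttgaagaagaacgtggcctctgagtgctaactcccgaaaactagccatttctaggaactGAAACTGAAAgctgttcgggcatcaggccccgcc
B2m (chr2:122147437-122147686, forward strand): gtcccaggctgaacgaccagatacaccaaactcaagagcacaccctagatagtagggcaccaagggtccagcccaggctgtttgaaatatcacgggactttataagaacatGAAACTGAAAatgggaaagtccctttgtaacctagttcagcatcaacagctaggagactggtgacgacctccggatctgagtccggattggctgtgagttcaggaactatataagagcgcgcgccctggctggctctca

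In Ifit1 the matches began 104 and 85 bases before the start, and in Rsad2 the only one began 120 bases before it. Isg15 held 3 overlapping matches, the first of them 78 bases before the start. The matches of Igtp and B2m began 34 and 139 bases before the start. The Ifit3 and Ifit3b sequences shared 217 aligned bases, 99.5% of those aligned, and the same pair of matches stood at 156 and 122 bases before the Ifit3 start and at 188 and 154 bases before the Ifit3b start. A match describes letters in a window, not binding.

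**Figure D1:**
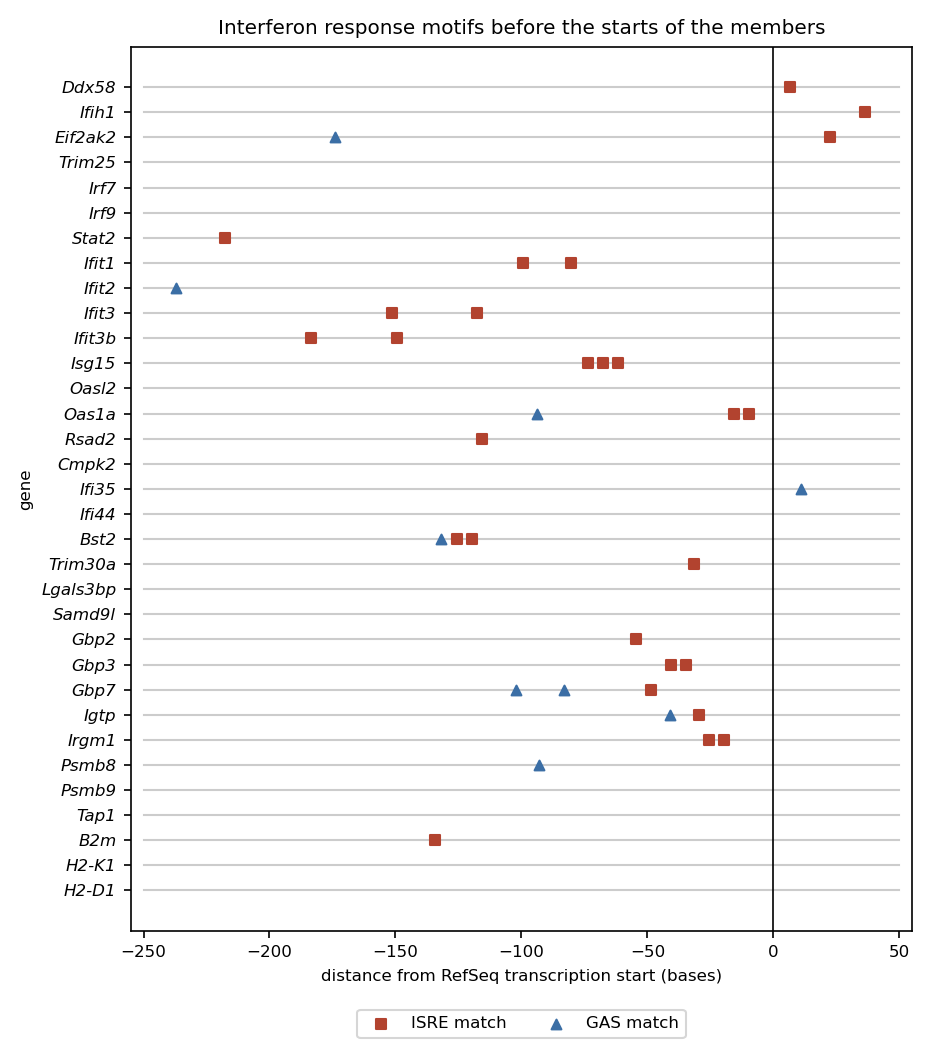
Position of ISRE and GAS matches in the first promoter window of each member, in bases from the start site. A further ISRE match in window 2 of Trim30a is not drawn. The class I row group holds a single ISRE match, in B2m, while all 5 GTPases hold at least 1.

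Levels per transcript length were compared as FPKM, the authors' fragments scaled by gene length and library size. B2m, the light chain shared by all class I molecules, averaged 79.3 FPKM over the 7 libraries and made up 48.5% of the members' summed FPKM. The class I heavy chain H2-D1 followed at 13.1 FPKM, then the mitochondrial protein gene Ifi27 at 9.89, the heavy chain H2-K1 at 8.97 and the nucleotide kinase gene Cmpk2 at 6.58 FPKM. These were the 5 members at or above 5 FPKM. In all, 23 members averaged at least 1 FPKM and 18 less. B2m stood clear of every other member in all 7 libraries, but Ifi27 and H2-K1 overlapped in their range over libraries. At the low end, Rsad2 averaged 0.448 FPKM, Oas2 0.117 and Zbp1 0.0589. Members together held 0.0269% to 0.0376% of gene counts in cKO libraries and 0.0304% to 0.0366% in WT libraries.

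None of the 38 tested members differed between cKO and WT at an adjusted p under 0.05 in edgeR's quasi-likelihood test, and their smallest adjusted p was 0.694. The background was the same, with 0 of 16308 genes called (0%). Rsad2 and Ifit1, both higher in cKO, were the 2 of 38 members (5.26%) with an unadjusted p under 0.05, against 1164 of 16308 genes (7.14%). At that unadjusted edgeR p, genes higher in cKO made up 4.22% and genes lower in cKO 2.91% of the 16308. For 0 of the 38 members did cKO and WT libraries separate without overlap, against 7.38% of all genes tested. DESeq2 gave an unadjusted p under 0.05 to 2 members and to 6.43% of all genes. It gave an adjusted p to only 2 of the 38 members and called 0 of those 2, against 12 of 6190 genes with one (0.194%). A fit blocked on replicate number called 2 of the 16308 genes (0.0123%), and 0 of these were members. In bulk tissue, fewer cells of a type and less RNA per cell cannot be told apart in any of these values.

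The signs of the members' fold changes were uneven by role. Log2 fold changes, cKO over WT throughout, were positive for 25 members and negative for 13, so 65.8% were positive against 51.8% of all genes tested. Their median was 0.14, against 0.0074 for all genes. Of the 18 tested antiviral effectors 15 were positive (median 0.15), and of the 5 sensing genes 4 (median 0.32). Of the 7 class I genes 2 were positive and 5 negative (median -0.18), and of the 5 GTPases 2 and 3 (median -0.01). The median over the members was 0.041 with the replicate block, 0.039 without cKO replicate 3, 0.059 without cKO replicate 4, 0.064 without WT replicate 2 and 0.25 without WT replicate 1. Standard errors of single members ran from 0.098 to 0.47, with a median of 0.23, and the 95% interval of 36 of the 38 contained 0.

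**Figure D2:**
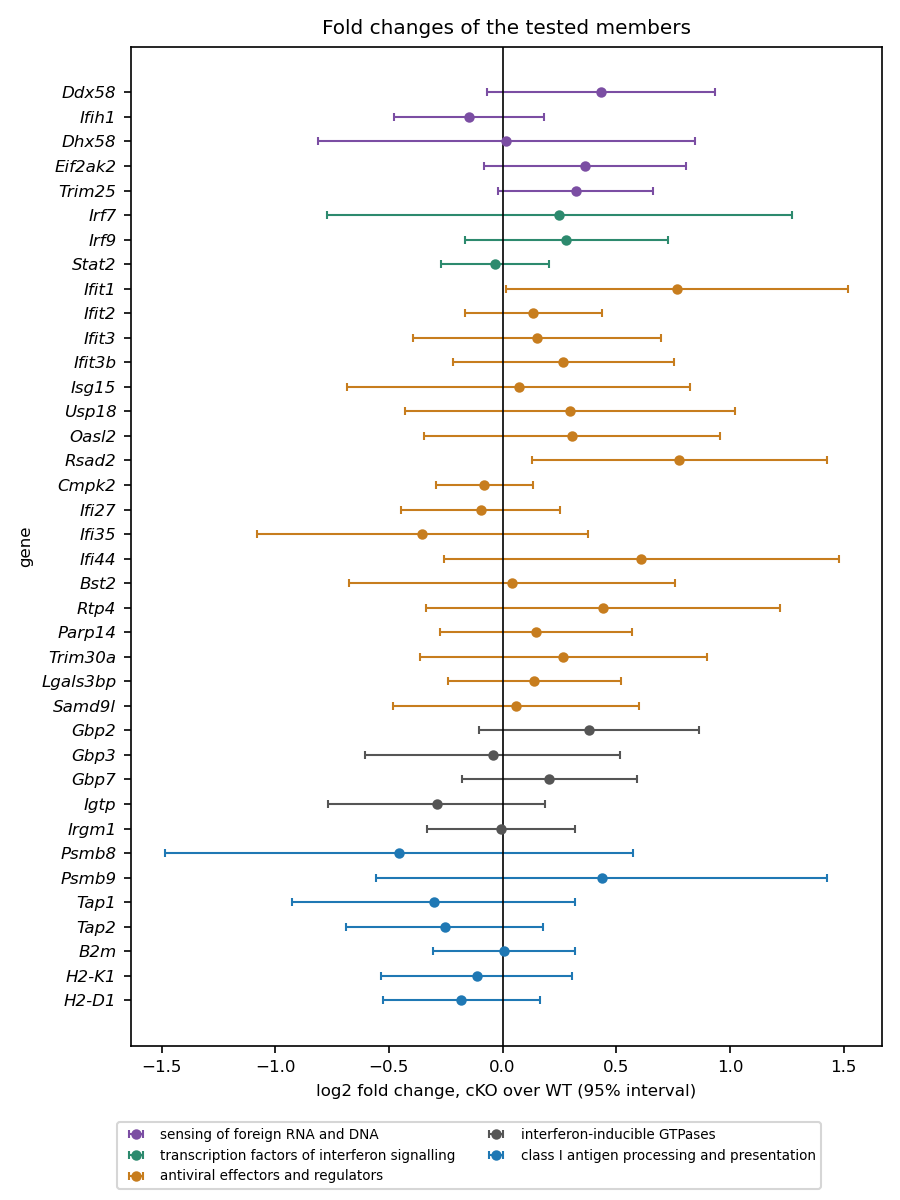
Log2 fold change of each tested member, cKO over WT, with its 95% interval from edgeR, grouped by role. Rsad2 and Ifit1 have the only intervals that lie above 0, and the class I genes lie mostly left of 0.

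Among the sensing genes, Ddx58 encodes RIG-I, a sensor of viral RNA ends. It had 4.94, 4.52, 8.73 and 6.64 CPM (counts scaled to library size) in cKO replicates 1 to 4, against 4.53, 5.13 and 4.09 CPM in WT replicates 1 to 3. The values of cKO replicates 3 and 4 lay above all WT values, and those of cKO replicates 1 and 2 lay among them. The log2 fold change was 0.43 ± 0.23 (SE), with an edgeR unadjusted p of 0.0835 and an adjusted p of 0.715, and it was 0.22 without cKO replicate 3. Trim25 encodes the ubiquitin ligase known to act on RIG-I, and had 9.53, 8.65, 10.8 and 10.3 CPM in cKO against 7.22, 9.57 and 6.80 CPM in WT. Only cKO replicates 3 and 4 exceeded the highest WT library, and the log2 fold change was 0.32 ± 0.16 (SE; edgeR adjusted p 0.704). Eif2ak2 encodes PKR, a kinase that halts translation on binding double-stranded RNA. It had 8.02, 6.85, 10.4 and 9.90 CPM in cKO against 6.24, 8.89 and 5.35 CPM in WT. WT replicate 2 lay above the first 2 cKO libraries, and the log2 fold change was 0.36 ± 0.20 (SE; edgeR adjusted p 0.730), or 0.59 without WT replicate 2 and 0.22 without WT replicate 3. Ifih1, the gene of MDA5, and Dhx58, the gene of their relative LGP2, had log2 fold changes of -0.15 and 0.02. Zbp1, a sensor of Z-form nucleic acid, was too low to test, with 3 to 5 counts in cKO libraries and 0 to 7 in WT libraries.

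Of the transcription factors, Stat2 had the highest mean FPKM (3.61). Its levels were 21.8, 20.8, 20.3 and 22.1 CPM in cKO, against 21.3, 24.5 and 19.4 CPM in WT. All cKO values lay inside the WT range, and the log2 fold change was -0.03 ± 0.11 (SE). Irf9, a DNA-binding partner of STAT2, had 8.86, 8.58, 9.27 and 12.3 CPM in cKO, against 5.63, 10.3 and 8.19 CPM in WT. WT replicate 1 was the lowest library and cKO replicate 4 the highest, with a log2 fold change of 0.28 ± 0.20 (SE). It was 0.07 without WT replicate 1, 0.14 without cKO replicate 4 and 0.49 without WT replicate 2. Irf9 overlaps Rnf31 on the same strand, so its count may hold reads of that gene. Irf7, which drives the later wave of interferon transcription, had 2.05, 0.67, 1.76 and 2.57 CPM in cKO against 2.45, 0.68 and 1.32 CPM in WT. Its spread within each group exceeded the difference between them (log2 fold change 0.25 ± 0.47, SE). Irf7 overlaps Phrf1 on the opposite strand, with 182 counts over the libraries against 5760 for Phrf1. The strand setting of the counting was not given.

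Rsad2 and Ifit1 had the largest fold changes among the effectors. Rsad2 (chromosome 12, 26442746 to 26456452, mm10, reverse strand) encodes viperin, an enzyme that makes a chain-terminating nucleotide against viral replication. It had 2.23, 1.60, 2.98 and 2.69 CPM in cKO, against 1.65, 1.30 and 1.19 CPM in WT. Of the cKO libraries, replicate 2 fell inside the WT range and the other 3 lay above it. Means were 2.37 ± 0.60 CPM in cKO and 1.38 ± 0.24 CPM in WT (SD, n = 4 and n = 3), a log2 fold change of 0.78 ± 0.30 (SE), with an edgeR unadjusted p of 0.0226 and an adjusted p of 0.694. Ifit1 (chromosome 19, 34640871 to 34650009, mm10, forward strand) encodes a protein that binds foreign RNA ends. It had 3.44, 2.13, 4.74 and 6.01 CPM in cKO, against 1.53, 3.09 and 2.58 CPM in WT. Here too cKO replicate 2 lay inside the WT range. Means were 4.08 ± 1.67 CPM in cKO and 2.40 ± 0.79 CPM in WT, a log2 fold change of 0.77 ± 0.35 (SE; edgeR unadjusted p 0.0462, adjusted p 0.696). The 95% interval ran from 0.13 to 1.43 for Rsad2 and from 0.02 to 1.52 for Ifit1. Without cKO replicate 4 the log2 fold change of Ifit1 was 0.51 and without WT replicate 2 it was 0.98, while that of Rsad2 lay between 0.65 and 0.92 whichever single library was left out.

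**Figure D3:**
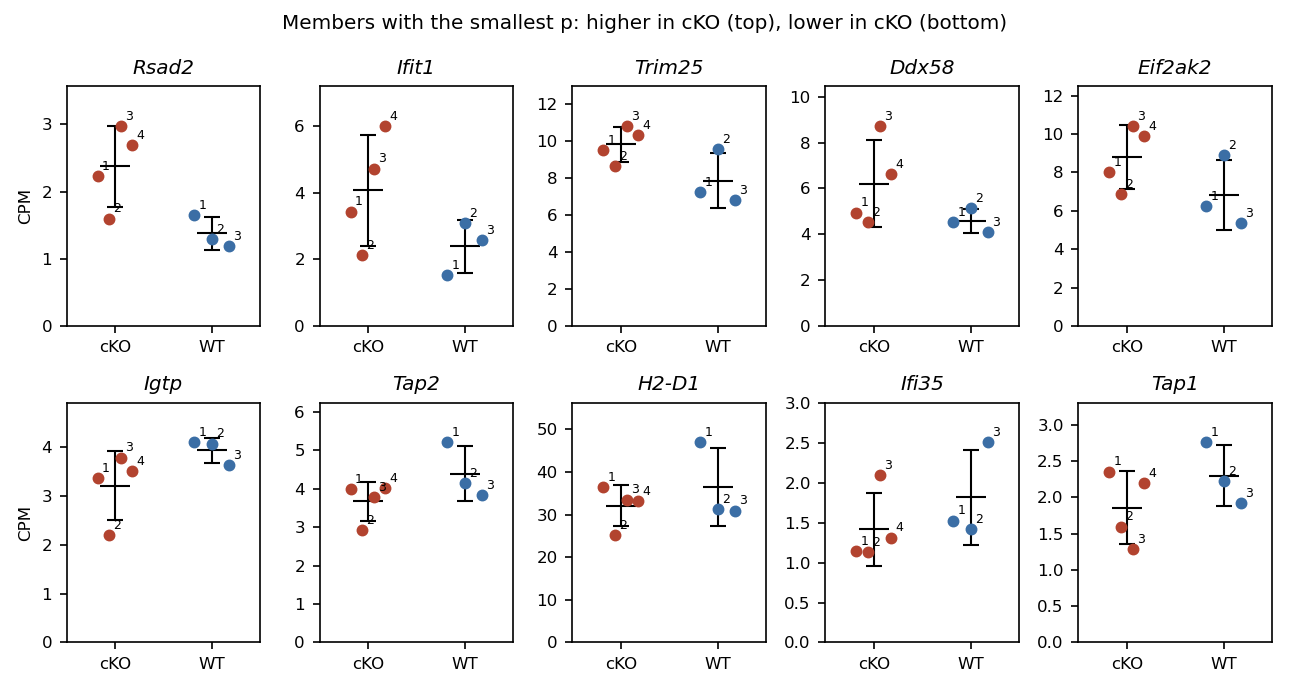
CPM of the 5 members with the smallest p in each direction, with cKO left of WT. Each numbered point is a library, and lines are the mean and SD. In Rsad2 and Ifit1 the lowest cKO point, replicate 2, lies among the WT points, and in H2-D1 WT replicate 1 stands above the rest.

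Cmpk2 is the neighbour of Rsad2, 12751 bases away on the opposite strand, and both are known as interferon-induced genes. Its levels were 25.8, 26.6, 30.0 and 24.9 CPM in cKO, against 26.6, 28.5 and 29.9 CPM in WT. The groups overlapped almost wholly, and the log2 fold change was -0.08 ± 0.10 (SE), the smallest error of any member. The difference between the fold changes of these neighbours was not tested. Ifi27 had 14.2, 11.2, 15.1 and 16.04 CPM in cKO, against 16.8, 11.9 and 16.7 CPM in WT, a log2 fold change of -0.10 ± 0.16 (SE). Ifi35, a binding partner of NMI, had 1.15, 1.13, 2.10 and 1.32 CPM in cKO against 1.53, 1.42 and 2.51 CPM in WT. Its 3 lower cKO libraries lay below all WT libraries, with a log2 fold change of -0.35 ± 0.33 (SE; edgeR adjusted p 0.837). It was -0.06 without WT replicate 3 and -0.60 without cKO replicate 3. Cmpk2, Ifi27 and Ifi35 were the 3 effectors with a negative fold change.

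The other tested effectors were positive without passing. Isg15, a ubiquitin-like protein that is among the most inducible interferon products, had 1.45, 1.26, 1.28 and 1.44 CPM in cKO against 2.02, 0.93 and 0.92 CPM in WT. All cKO values lay between the WT values (log2 fold change 0.07 ± 0.35, SE). Usp18, the protease that removes ISG15, had a log2 fold change of 0.30, and Rtp4 and Ifi44 had 0.44 and 0.61. Ifit2, Ifit3 and Ifit3b, relatives of Ifit1, had 0.13, 0.15 and 0.27. Ifit3 and Ifit3b cannot be fully separated, since 31.7% of the 100-base stretches of Ifit3 also occur in Ifit3b. Their summed level was 11.4, 8.05, 13.3 and 12.3 CPM in cKO, against 11.3, 10.1 and 7.99 CPM in WT, so that the groups overlapped for the sum as well. Oas1a and Oas2, genes of the 2-5A synthetases that feed RNase L, were not tested. Oas1a had 9, 5, 12 and 8 counts in cKO and 4, 6 and 8 in WT, and Oas2 had 5, 9, 5 and 20 counts in cKO and 11, 7 and 1 in WT. Of Oas1a, 40.9% of 100-base stretches occur in Oas1g. Of Rtp4, 9.28% occur in Gm45338, which overlaps it on the same strand.

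The GTPases act against vacuolar pathogens. Igtp, also called Irgm3, had 3.38, 2.19, 3.79 and 3.51 CPM in cKO against 4.10, 4.08 and 3.63 CPM in WT. Only cKO replicate 3 reached the WT range, and the log2 fold change was -0.29 ± 0.22 (SE; edgeR adjusted p 0.785), or -0.15 without cKO replicate 2. Igtp overlaps Irgm2 on the same strand and shares 5.16% of its 100-base stretches with it, so its count may hold reads of that gene. Irgm1, a regulator of the other immunity-related GTPases, had 11.4, 7.92, 9.13 and 9.84 CPM in cKO, against 10.5, 9.32 and 9.11 CPM in WT. These overlapped, with a log2 fold change of -0.01 ± 0.15 (SE). The guanylate-binding protein genes Gbp2, Gbp3 and Gbp7 had log2 fold changes of 0.38, -0.04 and 0.20.

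In the class I pathway, B2m had 74.6, 50.4, 83.7 and 65.3 CPM in cKO, against 75.2, 66.9 and 62.7 CPM in WT. Group means were 68.5 ± 14.2 CPM in cKO and 68.2 ± 6.35 CPM in WT (SD, n = 4 and n = 3). The log2 fold change was 0.01 ± 0.14 (SE), and its sign turned under several scalings (-0.02 with upper quartile scaling). H2-D1 had 36.5, 25.2, 33.5 and 33.2 CPM in cKO, against 46.9, 31.4 and 31.0 CPM in WT. WT replicate 1 stood above all others, and without it the log2 fold change was 0.04 in place of -0.18 ± 0.16 (SE). H2-K1 had 28.0, 16.3, 21.7 and 24.8 CPM in cKO against 31.1, 24.3 and 18.2 CPM in WT (log2 fold change -0.11 ± 0.19, SE). The sum of both heavy chains was 54.8 ± 9.68 CPM in cKO and 61.0 ± 15.1 CPM in WT.

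The transporter pair that carries peptides into the endoplasmic reticulum was also lower on average without passing. Tap1 had 2.35, 1.60, 1.28 and 2.19 CPM in cKO against 2.75, 2.22 and 1.92 CPM in WT, a log2 fold change of -0.30 ± 0.29 (SE). Tap2 had 3.98, 2.93, 3.79 and 4.01 CPM in cKO against 5.20, 4.14 and 3.83 CPM in WT, a log2 fold change of -0.26 ± 0.20 (SE). For both, 2 cKO libraries lay inside the WT range. Without WT replicate 1 the values were -0.16 for Tap1 and -0.12 for Tap2; Tap1 was -0.17 without cKO replicate 3, and Tap2 was -0.17 without cKO replicate 2. The immunoproteasome subunit genes went opposite ways in sign. Psmb8 had 1.63, 0.86, 1.15 and 0.81 CPM in cKO against 2.81, 1.17 and 0.59 CPM in WT (log2 fold change -0.46 ± 0.47, SE). The log2 fold change of Psmb9 was 0.44 ± 0.46 (SE), and Psmb9 overlaps Tap1 on the opposite strand.

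Many members were at their highest or lowest in the same library. Of the 38 tested members, 20 (52.6%) were lowest in cKO replicate 2 and 0 were highest there, against 13% of all genes tested lowest and 12.5% highest in that library. In cKO replicate 3, 15 members (39.5%) were highest, against 24.9% of all genes. In WT replicate 1, 11 members (28.9%) were highest, against 19.2%, and in WT replicate 3, 10 members (26.3%) were lowest, against 11.5%. Of 18 effectors, 13 (72.2%) were highest in cKO replicate 3 or 4, against 35.5% of all genes tested. Of 7 class I genes, 5 (71.4%) were highest in WT replicate 1, against 19.2% of all genes. The difference between these role groups was not tested. The mean deviation of the class I genes was 0.27, -0.46, -0.03 and 0.03 in cKO replicates 1 to 4 and 0.39, -0.01 and -0.19 in WT replicates 1 to 3. That of the effectors was 0.00, -0.32, 0.39 and 0.25 in cKO and 0.03, -0.18 and -0.17 in WT.

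**Figure D4:**
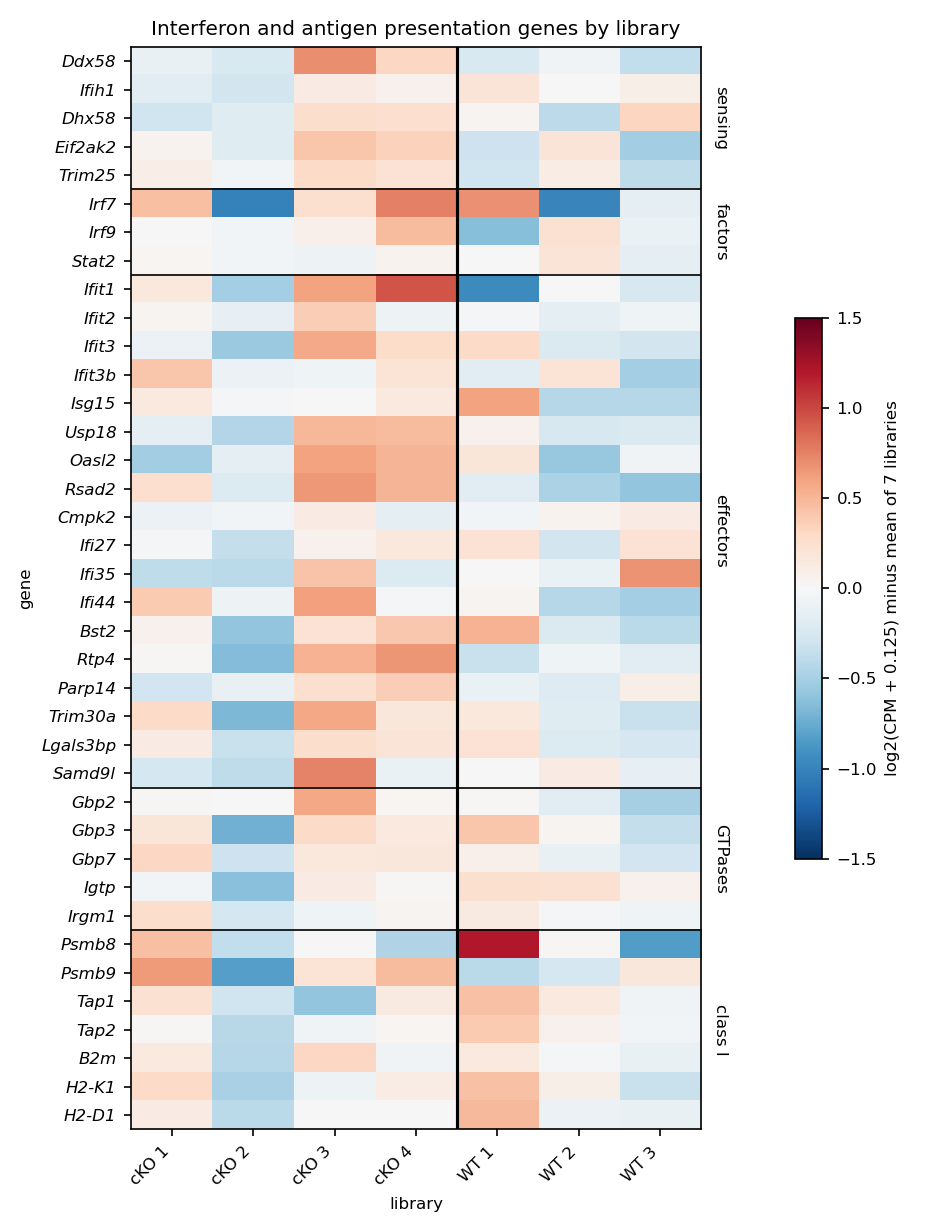
Log2 CPM of each member minus its mean over the 7 libraries, in rows by role, with the cKO libraries left of the WT libraries. The column of cKO replicate 2 is the lowest for 20 of the 38 tested members, and cKO replicate 3 is the highest for 15.

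Markers of the cells that could carry these transcripts also varied by library. The 10 microglia markers summed to 330 to 380 CPM in cKO and 358 to 438 CPM in WT. Of these markers, 9 had a negative fold change (median -0.16). By library, cKO replicate 2 had their lowest mean deviation (-0.25) and WT replicate 1 their highest (0.29). Endothelial markers summed to 324.8 to 350.3 CPM in cKO and 311.5 to 376.1 CPM in WT, 6 of 8 with a negative fold change (median -0.06). Their mean deviation was highest in WT replicate 1 (0.20) and lowest in cKO replicate 2 (-0.12). Meningeal fibroblast markers summed to 34.4 to 76.2 CPM in cKO, highest in replicate 3, and to 32.4 to 78.4 CPM in WT, highest in replicate 1. Border macrophage markers summed to 14.5 to 24.6 CPM in cKO and 12.6 to 25.8 CPM in WT, with the same 2 libraries highest. The part of these cells in the members' values was not tested. With both libraries left out, an alternative chosen after seeing the data, the log2 fold changes of Rsad2 and Ifit1 were 0.80 and 0.45 and the median of the members was 0.19. T and NK cell markers other than Cd4 summed to 0 to 0.301 CPM in cKO and 0 to 0.428 CPM in WT, so those cells' defining genes were at or near 0. Cortical excitatory neuron markers summed to 3867 to 4635 CPM in cKO and 4689 to 5225 CPM in WT, without overlap of the sums. Singly, 1 of the 7 was without overlap (7.38% of all genes tested). Slc17a7 and Camk2a, which made up most of the sums, each overlapped between the groups. Fold changes were negative for 6 of 7 (median -0.21), against 48.2% of all genes. An unadjusted edgeR p under 0.05 was found for 3 of the 7, all lower in cKO, against 2.91% of all genes. In either direction such a p was found for 1 of 10 microglia, 2 of 8 endothelial and 1 of 6 astrocyte markers. It was also found for 1 of 6 oligodendrocyte and 2 of 3 tested choroid plexus markers, against 7.14% of all genes. Fold changes were positive for 5 of 6 astrocyte markers (median 0.08) and 6 of 6 oligodendrocyte markers (median 0.35), against 51.8% of all genes tested. Astrocyte markers summed to 5033 to 5659 CPM in cKO and 4975 to 5505 CPM in WT. Oligodendrocyte markers summed to 3927 to 7859 CPM in cKO and 3650 to 5593 CPM in WT, and blood markers to 19.0 to 89.3 CPM in cKO and 12.9 to 70.7 CPM in WT, and cKO replicate 2 was highest for both. The part of these lists in the members' values was not tested either. Choroid plexus markers summed to 172 CPM in cKO replicate 4, where Ttr had 154 CPM. They summed to 19.2, 20.95 and 17.05 CPM in cKO replicates 1 to 3, inside the WT range of 13.9 to 22.1 CPM. Tia1 stood at 72.7 to 81.9 CPM in cKO libraries and 60.7 to 95.8 CPM in WT libraries, so the genotype labels were not checked by it. Library totals were 15181390 to 16403202 counts in cKO and 15213977 to 16463721 in WT. The 4 Y-linked genes examined summed to 1 count in cKO replicate 1, 0 in WT replicate 1 and at least 2126 in the other libraries. Xist ran the opposite way, as cKO replicate 1 held 1155 CPM, WT replicate 1 held 931.2 and every other library 0.494 CPM or less. The class I genes had their highest mean deviations in the same libraries (0.27 and 0.39). So did the microglia markers, with 0.08 in cKO replicate 1 and 0.29 in WT replicate 1. The other class I pathway genes did too, with 0.10 and 0.14. Class II genes had 0.72 in WT replicate 1 but -0.18 in cKO replicate 1. Whether the Xist and Y-linked split or the microglia level underlies the class I values was not tested. With the Y-linked level as a covariate, the median of the members was 0.15.

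**Figure D5:**
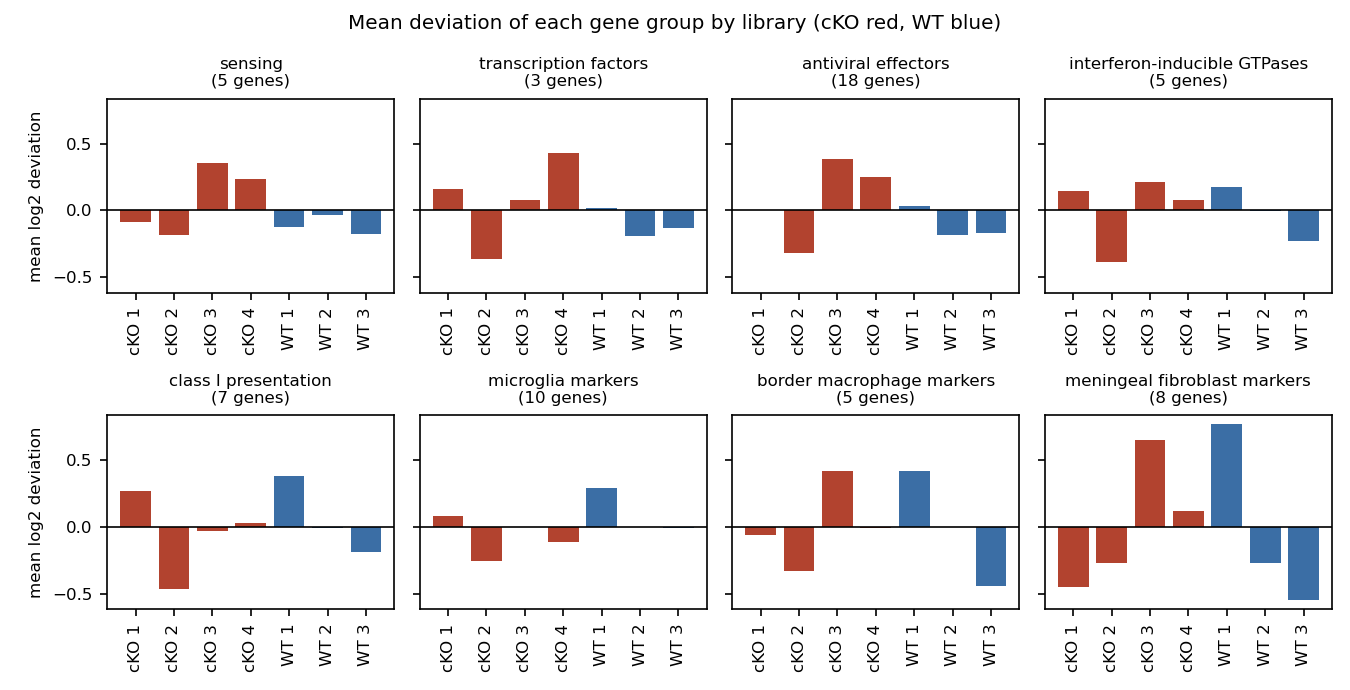
Bars give the mean deviation of each gene group from its genes' own means over 7 libraries, on the log2 CPM scale, per library, with cKO left of WT, for the 5 role groups and 3 marker lists. The effectors are highest in cKO replicate 3 (0.39) but stand at 0.03 in WT replicate 1. The class I genes are highest in WT replicate 1 (0.39) but stand at -0.03 in cKO replicate 3. The meningeal markers are high in both, at 0.66 in cKO replicate 3 and 0.77 in WT replicate 1.

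Of 113 other genes of the same pathways, 91 were tested and 0 were called. Positive fold changes numbered 45 and negative ones 46, with a median of 0.00. An unadjusted p under 0.05 was found for 6 (6.59%), below the 7.14% of all genes tested. These were Jak2, Tlr7, Xaf1 and Ifi203, higher in cKO, and Psmb10 and H2-Eb1, lower in cKO. Interferon genes themselves were at 0 counts in all 7 libraries for 9 of 10 ligands, and Ifnk had 1 count in cKO replicate 4. A count of 0 allows up to 3 counts, or 0.181 to 0.203 CPM in cKO libraries and 0.184 to 0.198 CPM in WT libraries.

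Of the 18 receptors, kinases and negative regulators, 8 were positive and 10 negative (median -0.02). Jak2, a kinase of the interferon gamma receptor, had 76.8, 82.8, 89.2 and 75.4 CPM in cKO against 66.2, 71.9 and 71.5 CPM in WT. All cKO values lay above all WT values, with a log2 fold change of 0.21 ± 0.08 (SE; edgeR adjusted p 0.694). The most abundant genes of the list, the kinase gene Jak1 and the STAT inhibitor Pias1, had log2 fold changes of 0.04 and 0.07. Of the 17 tested sensors, adaptors and nucleases, 7 were positive (median -0.02). Tlr7, a receptor of single-stranded RNA, had 9.46, 7.45, 7.91 and 7.83 CPM in cKO against 7.28, 6.30 and 5.75 CPM in WT. The groups did not overlap and the log2 fold change was 0.34 ± 0.15 (SE; edgeR adjusted p 0.696). Adar and Traf3, an RNA-editing enzyme and a signalling adaptor, had log2 fold changes of -0.02 and -0.02. Groups failed to overlap in 7 of the 91 genes (7.69%), close to the 7.38% of all genes tested. They were Jak2, Irf2, Tbk1, Tlr7, Parp9 and Trim21 with cKO above and Tapbp with cKO below.

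Of 31 tested other interferon-stimulated genes, 21 were positive and 10 negative (median 0.09). Xaf1, a pro-apoptotic interferon target, had 17.6, 19.2, 11.3 and 21.8 CPM in cKO against 3.31, 16.3 and 3.90 CPM in WT. WT replicate 2 was close to the cKO libraries and the others were far below. The log2 fold change was 1.15 ± 0.44 (SE; edgeR adjusted p 0.694). Ifi203, of the interferon-inducible p200 family, had 2.77, 1.46, 1.83 and 2.88 CPM in cKO against 1.47, 0.99 and 1.06 CPM in WT (log2 fold change 0.93 ± 0.33, SE; edgeR adjusted p 0.691). Ifi203 overlaps Mndal on the same strand, so its count may hold reads of that gene. Daxx and Pml, both of nuclear bodies, had log2 fold changes of 0.03 and -0.00.

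Of the antigen presentation genes outside the members, 10 of 17 other class I genes (58.8%, median -0.13) and 6 of 8 class II genes (75%, median -0.20) had a negative fold change, against 48.2% of all genes tested. The most abundant of the class I list, Canx and Calr, were positive. Psmb10, the third immunoproteasome subunit, had 20.9, 16.6, 14.2 and 17.4 CPM in cKO against 25.4, 18.4 and 21.4 CPM in WT. One cKO library, replicate 1, lay inside the WT range, with a log2 fold change of -0.33 ± 0.15 (SE; edgeR adjusted p 0.696). Tapbp, the tapasin gene, whose product loads peptides onto class I, had 20.7, 19.2, 21.4 and 20.2 CPM in cKO against 24.2, 23.2 and 22.98 CPM in WT. The chaperone genes Canx and Calr had log2 fold changes of 0.13 and 0.10. H2-Eb1, a class II chain, had 0.66, 0.47, 1.15 and 0.81 CPM in cKO against 2.57, 0.99 and 1.06 CPM in WT, so WT replicate 1 lay far above the rest (log2 fold change -0.99 ± 0.44, SE; edgeR adjusted p 0.696). The class II genes had a mean deviation of 0.72 in WT replicate 1 and of at most 0.14 in any other library. Ctss and H2-DMa had log2 fold changes of 0.03 and -0.14.

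Fold changes were also set out by promoter match. The 17 tested members with an ISRE in the window had a median log2 fold change of 0.15, with 12 positive, and the 15 without one a median of 0.13, with 9 positive.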

How the data were processed

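RNA of 7 motor cortex samples was fragmented as mRNA and primed at random, per the labels' protocols. The authors deposited raw counts and FPKM per gene. Tools in the submitters' processing notes were featureCounts 1.5.0-p3 and DESeq2 1.20.0, with build mm10. The aligner, annotation release and strand setting were not given in the sources used here.

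The deposited counts were fitted with edgeR 4.0.16 in R 4.3.3 (TMM, filterByExpr, quasi-likelihood F test, genotype only), with Benjamini-Hochberg adjustment over 16308 genes and a threshold of 0.05. The script was tested on simulated data. CPM use TMM-scaled library sizes, and 0.125 CPM was added before log2 means. Alternatives included limma 3.58.1 and DESeq2 1.42.0. Members and lists were chosen with earlier results of these data known. Named are members passing the threshold or, with none, the 5 with the smallest p in each direction, plus the 2 of highest mean FPKM per role; others described (among them Irf7, Isg15, Psmb8 and H2-K1) were chosen after their values were seen. From other lists the rule took genes with an unadjusted p under 0.05 and the 2 of highest mean CPM.

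Both groups share replicate numbers. Deviations of same-numbered libraries correlated at 0.110, 0.128 and 0.122 across genes. Libraries of unlike number ranged from -0.239 (cKO replicate 3 and WT replicate 2) to 0.210 (cKO replicate 4 and WT replicate 2). Among them, cKO replicate 3 and WT replicate 1 stood at 0.129. Same-numbered values were all positive, and those of unlike number had both signs. Replicate 1 of both groups also held the high Xist level. What the shared numbers stand for was not in the labels. The fit reported was unpaired, and the replicate block was an alternative only. The median of the members was 0.041 with the block and 0.14 without it. The labels do not say that libraries are from separate mice, so p-values measure the spread between libraries. Copies were judged by 100-base stretches shared with other GENCODE transcripts.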

Additional observations from a re-analysis of the deposited data

How the results depend on the processing

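No member was called under any of the 20 alternatives. Calls over all genes were 0 in the fit reported and 198 with no filter on low counts, 12 with DESeq2, 3 on log2(FPKM + 1) with no filter, 2 with the replicate block, 1 without WT replicate 1 and cKO replicate 3 together, and 0 to 3 with each library left out in turn. DESeq2 gave an adjusted p for 6190 genes and 2 of the 38 members. Among other pathway genes, Xaf1 was the 1 gene called with no filter and without WT replicate 2 (0 to 1 over single libraries left out). The replicate block changed no other call. The median of the members stayed positive, from 0.041 to 0.19, and from 0.039 to 0.25 with single libraries left out. An unadjusted p under 0.05 was found for 4 members without WT replicate 2 (10.3% of members, 9.52% of all genes tested) and for 4 without cKO replicate 2 (10.5% and 4.72%). It was found for 0 members without WT replicate 3, against 5.19% of all genes, 0 without cKO replicate 3, against 9.55%, and 0 without cKO replicate 4, against 5.08%.

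Of 316 alternative values of the 16 named members, 294 kept their sign, and 12 members kept it throughout. B2m turned to -0.00013 with RLE scaling, -0.016 with upper quartile, -0.0018 with library size only, -0.0015 with a CPM of at least 1 in 3 libraries, -4.3e-05 with DESeq2, -0.015 with limma-voom, -0.022 on log2(FPKM + 1), on log2(FPKM + 0.1) and with no FPKM filter, and -0.029 without both libraries above, with -0.11 to 0.12 over single libraries left out. Irgm1 was 0.015 with the Y-linked covariate and 0.081 without both libraries, with -0.11 to 0.067 over single ones. H2-D1 was 0.023 without both libraries and -0.29 to 0.04 over single ones, and Stat2 -0.11 to 0.051 over single ones. The causes were not tested. With 4 and 3 libraries and a median SE of 0.23 on the log2 scale, differences of the size seen for most members could not be told from 0.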
